A study of Mus musculus with 13 samples.

Results

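The measurements described here are the levels of 10 transcripts of 9 genes of the endoplasmic reticulum (ER) stress and integrated stress response pathways, out of 244939 transcripts listed for each tumour. They were picked by transcript ID: HSPA5, HSP90B1 and CALR (ER chaperones), HERPUD1 (degradation of misfolded ER proteins), XBP1 with 2 IDs (transcription factor of the unfolded protein response), and DDIT3, ATF3, TRIB3 and DDIT4 (stress-induced regulators). Gene names came with that list, since the files give IDs alone. All 10 passed the filter on low counts that left 74973 transcripts for testing, HERPUD1 with few reads.

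Bulk RNA sequencing was carried out on 13 tumours grown from MDA-MB-231 cells, a long-established line of triple-negative human breast cancer, in the 4th mammary gland of female NSG mice aged 12 to 13 weeks. NSG mice lack mature lymphocytes and natural killer cells, so the host has no adaptive immunity, although the labels call it immunocompetent. Mice with tumours of 80 to 150 mm3 were gavaged daily with vehicle alone (40% DMSO and 60% polyethylene glycol, 7 tumours sequenced) or with 30 mg per kg OCA in that vehicle (6 tumours sequenced). OCA stands for obeticholic acid, an analogue of a bile acid and agonist of the nuclear receptor FXR, and all tumours share the line, the host and the solvent. The series text gives 14 days of growth.

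Library totals, the sums of reads assigned to transcripts, ran from 34015674 to 50596490 estimated reads. Depth of sequencing and the share of reads assigned cannot be told apart in them. The 3 libraries under 40000000 reads were vehicle replicates 2, 3 and 5. Label numbers fall into a lower series (3 vehicle, 4 OCA) and an upper series (4 vehicle, 2 OCA) whose meaning is not given, and all 3 libraries of low total are in the upper series. On the first principal component, with 14.4% of the variance, vehicle replicates 1 and 4 and OCA replicate 2 stood apart from the other 10 libraries. Values with and without these libraries are given below where they change a result. The labelled cell type was not checked against its markers, because symbols were at hand for the listed IDs alone.

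Secreted and membrane proteins fold in the ER with the help of chaperones. When unfolded proteins build up, the sensors IRE1, PERK and ATF6 start the unfolded protein response, which raises chaperone and degradation genes and slows translation. PERK also feeds the integrated stress response, in which phosphorylation of eIF2α favours translation of ATF4, a factor that induces DDIT3, ATF3 and TRIB3. Tumour cells are known to lean on these pathways under low oxygen and nutrient supply.

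Levels are given as TPM, transcripts scaled to 1000000 per library, a value per length of transcript that can be compared between genes. The list spanned more than 3 orders of magnitude, with the chaperones CALR and HSP90B1 at the top and the HERPUD1 transcript at the bottom. Over the 13 tumours CALR averaged 760 TPM and HSP90B1 469 TPM. DDIT4 at 98.1 TPM and HSPA5 at 72.8 TPM came next, followed by the longer XBP1 transcript at 29.3 TPM. DDIT3 at 15.5 TPM, the shorter XBP1 transcript at 15.2 TPM and TRIB3 at 12.5 TPM lay close together. ATF3 averaged 2.05 TPM and HERPUD1 0.167 TPM. Neighbours in this order were compared within libraries by a two-sided exact sign-flip permutation test of the log2 ratio, adjusted over 9 pairs. DDIT4 did not differ from HSPA5 beyond the spread between libraries (higher in 9 of 13, adjusted p = 0.0711), and DDIT3 did not differ from the shorter XBP1 transcript (higher in 6 of 13, adjusted p = 0.696). The shorter XBP1 transcript lay above TRIB3 in 12 of 13 libraries (adjusted p = 0.0022), and the other 6 steps held in 13 of 13 libraries (adjusted p = 0.000366 each). A step that holds in all 13 libraries gives the smallest p this test can reach. The order was taken from these same libraries, so these p-values add no separate support for it. As these tumours are bulk tissue, fewer cells of a type and less RNA per cell cannot be told apart in any of these values. The treatment of mouse reads is not stated, so reads from host cells may be part of them, which was not tested.

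**Figure D1:**
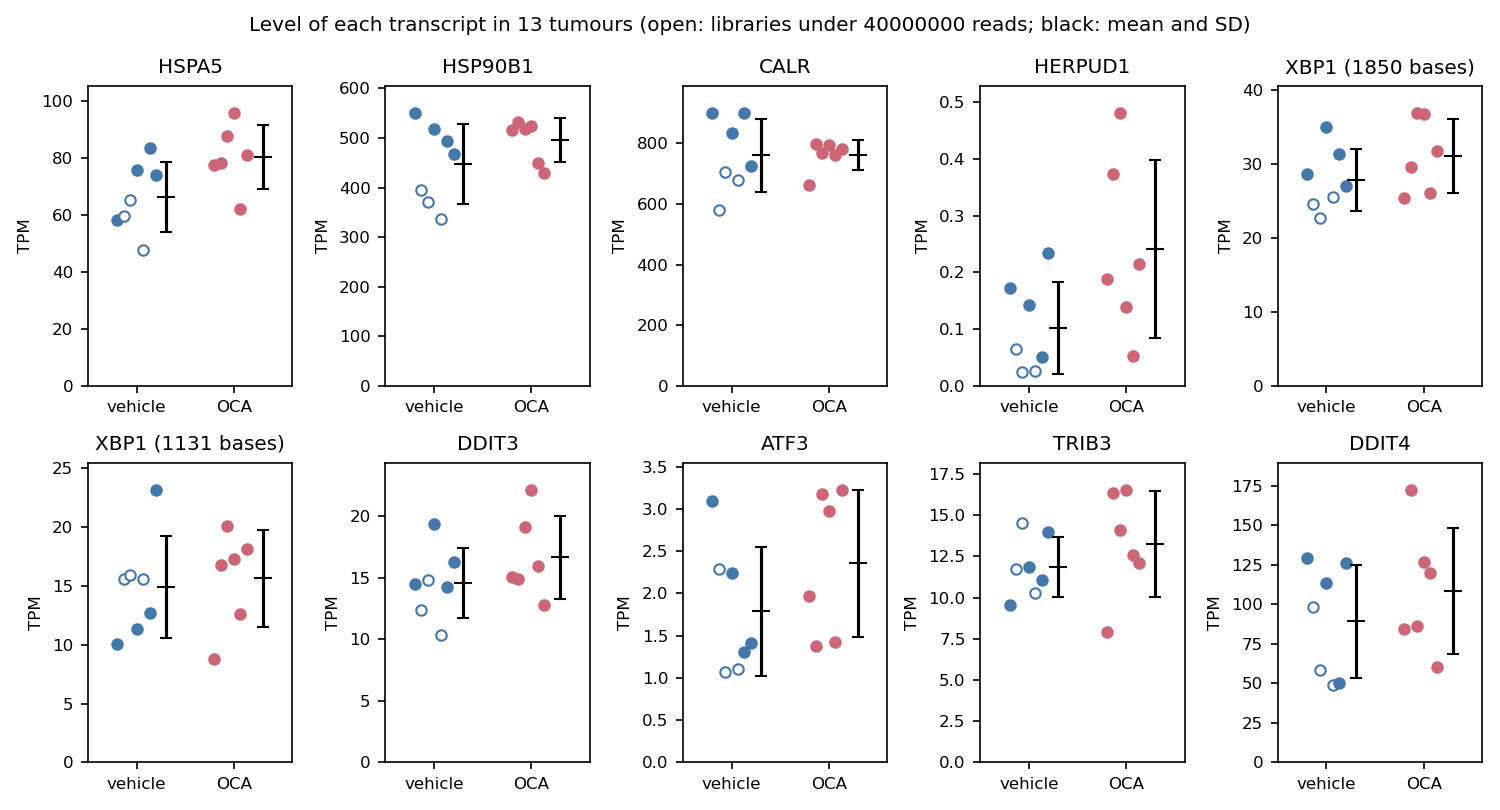
TPM of each transcript by treatment, 1 point per tumour (7 vehicle, 6 OCA), with open points for the vehicle libraries under 40000000 reads and black marks for the mean and SD. The groups overlap in all 10 panels, and the open points are the lowest 3 vehicle values for HSP90B1, CALR and the 1850-base XBP1 transcript.

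The comparison of OCA with vehicle asks whether an FXR activator alters this stress programme in the tumours. None of the 10 transcripts was called different between OCA and vehicle tumours. By edgeR's quasi-likelihood test over all 74973 transcripts, 0 of 10 had an adjusted p under 0.05 and the adjusted p of each was 1, against 0% of all transcripts called. No member had groups free of overlap in TPM or CPM, against 0.123% of tested transcripts in CPM. At an unadjusted p under 0.05 edgeR also found 0 of 10, beside 2.77% of all transcripts (5.67% of those averaging 10 CPM or more, CPM being counts scaled to 1000000 per library). DESeq2 and limma-voom likewise found 0 of 10 without adjustment. After adjustment limma-voom found 0 of 10 and DESeq2 0 of 8, as it gave HERPUD1 and ATF3 no adjusted p. Limma on log2(TPM + 0.1) found 1 without adjustment, HSPA5. Among all alternative settings, HSPA5 had an unadjusted p under 0.05 in 5 of 28, HERPUD1 in 2 of 27 and ATF3 in 1 of 27. The other members had none. The log2 fold change was above 0 for 9 of 10, with a median of 0.14, where 51% of all tested transcripts and 45% of those at 10 CPM or more were above 0. That count of 9 fell to 6 in the lower label series and to 7 without the 3 vehicle libraries of low total. It rose to 10 in the upper label series, with limma on log2 TPM and without vehicle replicate 6. The count thus moved with the libraries and the scale used. Its signs are not independent, as both XBP1 IDs are counted.

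HSPA5, also called BiP or GRP78, is the ER's Hsp70 chaperone and holds the 3 sensors inactive until unfolded proteins draw it away. Its transcript (ENST00000324460.7, 3921 bases) ran from 47.7 to 83.5 TPM in vehicle tumours, with a median of 65.1, and from 62.0 to 95.8 TPM in OCA tumours, with a median of 79.7. The groups overlapped, with 3 vehicle tumours below every OCA tumour and 2 OCA tumours above every vehicle tumour. Means were 66.3 ± 12.3 TPM (SD, n = 7) for vehicle and 80.5 ± 11.3 TPM (SD, n = 6) for OCA, and 5 of 6 OCA tumours lay above the vehicle mean. The fitted log2 fold change was 0.24 (SE 0.13), a 1.18-fold difference with a 95% confidence interval of 0.971 to 1.44 that includes no change and excludes 2-fold. Its unadjusted edgeR p of 0.0895 was the lowest of the list after that of HERPUD1.

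The fitted HSPA5 difference was larger in the upper label series than in the lower one. In the lower series vehicle tumours averaged 77.8 ± 5.06 TPM (SD, n = 3) and OCA tumours 80.8 ± 14.6 TPM (SD, n = 4), with a log2 fold change of 0.02. In the upper series the means were 57.6 ± 7.28 TPM (SD, n = 4) and 79.7 ± 2.09 TPM (SD, n = 2), with a log2 fold change of 0.44. OCA tumours of both series averaged 80.8 and 79.7 TPM, and the upper vehicle tumours were the low ones. There the groups did not overlap, with the highest vehicle tumour at 65.1 TPM and the lowest OCA tumour at 78.2 TPM. HERPUD1 and both XBP1 transcripts were also higher without overlap in the upper series, 4 of 10 in all, against 7.18% of tested transcripts, and 0 of 10 were in the lower series, against 3.41%. The difference between the series in the HSPA5 fold change, 0.42 on the log2 scale, was not past the threshold (edgeR interaction test added after seeing the data, adjusted p = 1). The upper series holds all 3 libraries of low total. Series and library total cannot be told apart among vehicle tumours except through vehicle replicate 1, which had a high total and 58.1 TPM. Without the 3 libraries the HSPA5 log2 fold change was 0.12 (edgeR adjusted p = 1).

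**Figure D2:**
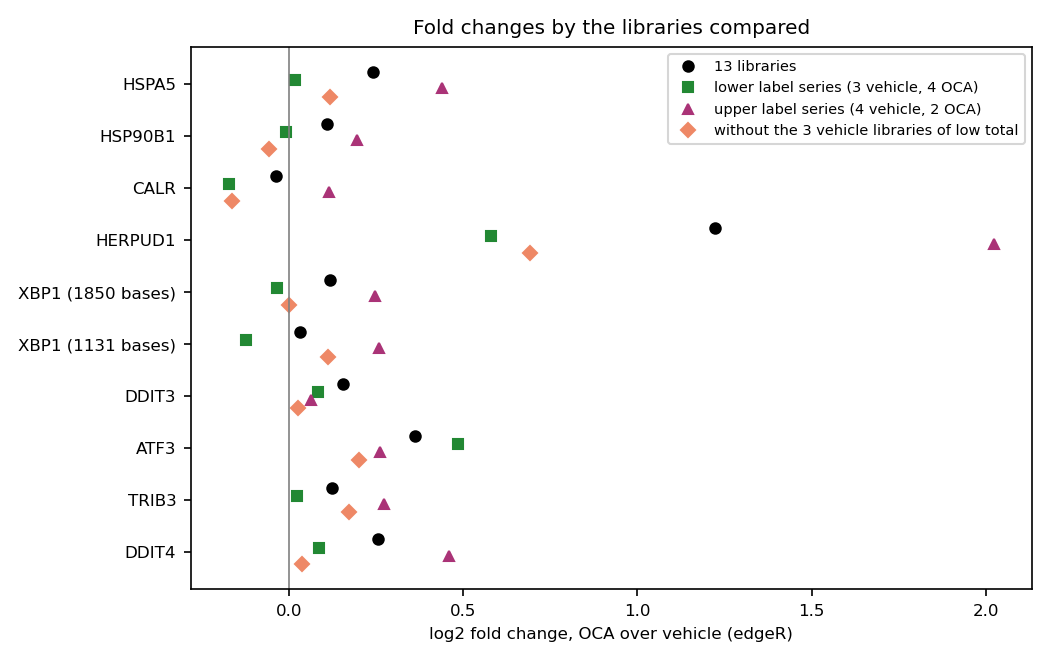
The edgeR log2 fold change of OCA over vehicle for each transcript, with all 13 libraries, within each label series, and without the 3 vehicle libraries of low total. HSPA5 moves from 0.02 in the lower series to 0.44 in the upper series, and ATF3 is the member with the larger value in the lower series by the widest margin.

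HSP90B1 (GRP94), the ER member of the Hsp90 family, folds integrins and Toll-like receptors. Its transcript (ENST00000299767.10, 2782 bases) ran from 337 to 550 TPM in vehicle tumours (median 468) and from 429 to 533 TPM in OCA tumours (median 517). Vehicle tumours spread more widely, and 3 of them lay below every OCA tumour while no OCA tumour lay above every vehicle tumour. Means of 448 ± 80.6 TPM (SD, n = 7) and 495 ± 44.3 TPM (SD, n = 6) gave a log2 fold change of 0.11 (SE 0.11), or 1.08-fold with a 95% confidence interval of 0.914 to 1.27. The sign of this small difference turned without the 3 libraries of low total (-0.06) and in the lower series (-0.01).

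CALR, calreticulin, is a calcium-binding lectin chaperone that retains glycoproteins until they are folded. Its transcript (ENST00000316448.10, 1901 bases) was the most abundant of the list, at 578 to 898 TPM in vehicle tumours (median 724) and 663 to 798 TPM in OCA tumours (median 773). The OCA range lay inside the vehicle range. The means were almost equal, at 760 ± 121 TPM (SD, n = 7) and 761 ± 49.8 TPM (SD, n = 6). The log2 fold change of -0.04 (SE 0.10) has a 95% confidence interval of 0.837 to 1.14 as a fold, the narrowest of the list, and its sign turned on the TPM scale (0.02). Within OCA, 5 tumours fell between 760 and 798 TPM and replicate 1 stood below them at 663 TPM.

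**Figure D3:**
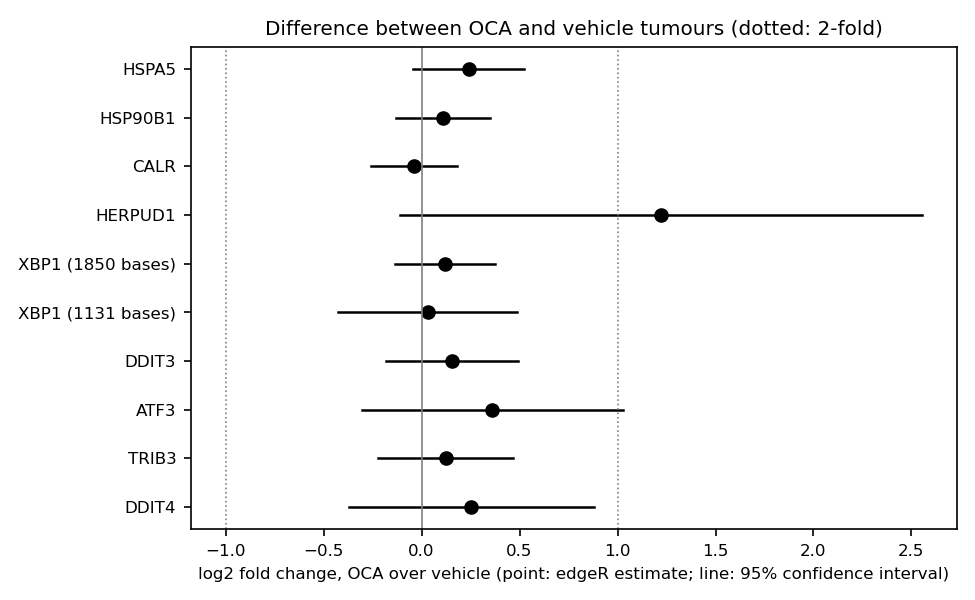
The edgeR log2 fold change of OCA over vehicle for each of the 10 transcripts (points) with its 95% confidence interval (lines). All 10 intervals include 0, and those of HERPUD1 and ATF3 alone reach past a 2-fold increase.

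The level of HSP90B1 followed the library total. On log2 scales, its TPM moved with the total of estimated reads over the 13 tumours (Pearson r = 0.94, permutation p = 3e-05, adjusted p = 0.0003 over 10 transcripts; Spearman rho = 0.97, permutation p = 1e-05, the smallest that 100000 resamples can give). This relation, added after seeing the data, was 0.71 in the lower and 0.94 in the upper label series, 0.93 within treatment groups, 0.94 without vehicle replicates 2 and 5, the libraries farthest from the median total, and 0.87 without the 3 of low total. TPM sums to 1000000 in every library. On the TMM-scaled log2(CPM + 0.5) scale, r for HSP90B1 was 0.93. For the 14710 transcripts at 10 CPM or more on average, the median r with the total was 0.08, and 2, HSP90B1 included, reached the value of HSP90B1 (0.0136%). CALR gave r = 0.74 (permutation p = 0.00312, adjusted p = 0.0156; rho = 0.70, permutation p = 0.00959), with 0.37 and 0.89 in the lower and upper series 0.50 without the 2 farthest libraries and 0.41 without the 3 of low total. For HSPA5 r was 0.65 (permutation p = 0.0161, adjusted p = 0.0394; rho = 0.42, permutation p = 0.157), with 0.34 and 0.60 in the series, and it dropped to 0.22 without the 2 farthest libraries and to -0.14 without the 3 of low total, so that relation rests on them. DDIT3 (r = 0.68), the longer XBP1 transcript (r = 0.63) and HERPUD1 (r = 0.62) also passed the adjusted threshold by Pearson's r (adjusted permutation p = 0.0349, 0.0394 and 0.0394). In the lower series these were 0.52, 0.63 and -0.02, and in the upper series 0.70, 0.74 and 0.89. Without the 2 farthest libraries they were 0.31, 0.57 and 0.50, and without the 3 of low total 0.32, 0.20 and 0.13. Their Spearman's rho was 0.58, 0.59 and 0.53 (permutation p = 0.0407, 0.0383 and 0.0685). DDIT4 did not pass by Pearson's r (0.55, adjusted permutation p = 0.0692), while its rho was 0.69 (permutation p = 0.011). Its r was 0.54 without the 3 of low total. Among the same 14710 transcripts, 1.41% reached the r of CALR, 3.36% that of DDIT3, 4.34% that of HSPA5, 5.3% that of the longer XBP1 transcript and 5.41% that of HERPUD1. HERPUD1 averaged 0.438 CPM, far below the level of that set, so its share is not a like comparison. The vehicle tumours of low total averaged 368 TPM of HSP90B1 and 57.4 TPM of HSPA5, against 508 and 72.9 TPM in the other 4 vehicle tumours and 495 and 80.5 TPM in OCA tumours. The part of library total in the differences between treatments was not tested beyond leaving these libraries out.

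**Figure D4:**
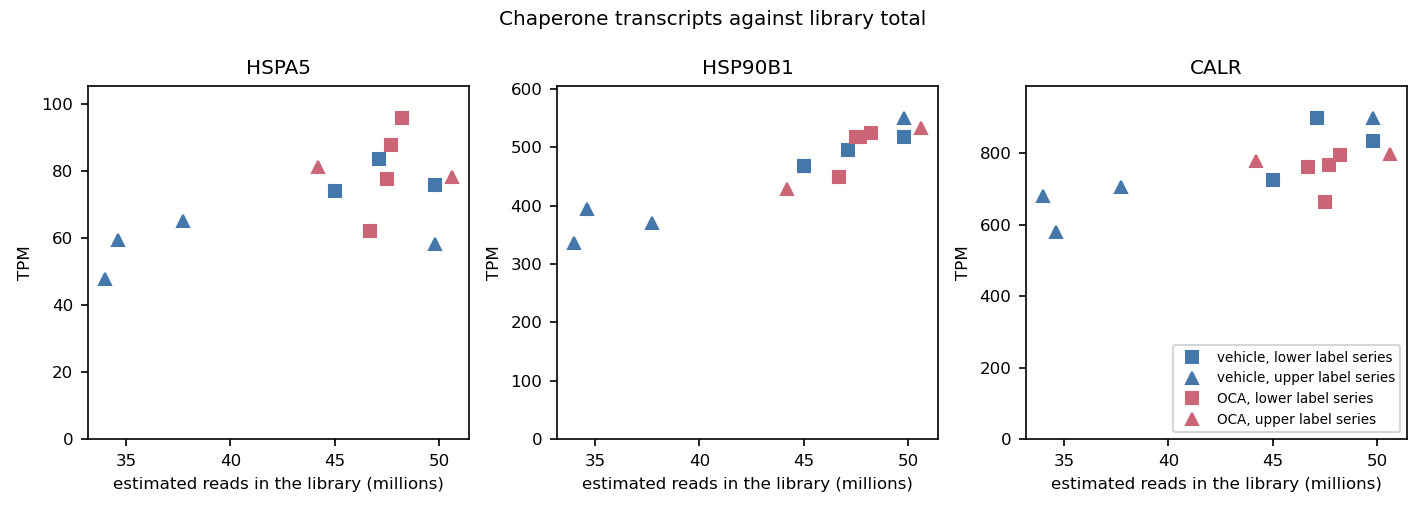
TPM of the chaperones against the total of estimated reads in each library (axis in units of 1000000 reads), coloured by treatment and shaped by label series. HSP90B1 climbs along the whole range (r = 0.94), CALR less closely (r = 0.74), and the 3 lowest HSPA5 points are vehicle replicates 5, 1 and 2.

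HERPUD1 is an ER membrane protein that helps hand misfolded proteins to the degradation machinery, and is a sensitive target of the unfolded protein response. The listed transcript (ENST00000439977.7, 2853 bases) was barely detected, at 0.0242 to 0.234 TPM in vehicle tumours (median 0.0654) and 0.053 to 0.481 TPM in OCA tumours (median 0.202). It rests on 2.5 to 57.8 estimated reads per library. The means of 0.102 ± 0.0813 TPM (SD, n = 7) and 0.242 ± 0.158 TPM (SD, n = 6) gave the widest interval of the list, a log2 fold change of 1.22 (SE 0.62) or 2.33-fold with limits of 0.925 and 5.88. The highest 2 values were OCA tumours and the lowest 3 were vehicle tumours. The log2 fold change was 0.69 without the 3 libraries of low total. On the log2(TPM + 1) scale the difference shrank to 0.17, as it must for values far below the added 1. The interval runs from a slight fall to an increase of more than 5-fold, so a difference was not detectable with so few reads. The level of the gene's other transcripts was not analysed here.

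XBP1 is the transcription factor that IRE1 switches on by cutting an intron out of its mRNA in the cytoplasm. The unspliced message encodes a short, unstable protein and the spliced message an active factor that raises chaperone and degradation genes. The files list ENST00000216037.10 with 1850 bases and ENST00000344347.5 with 1131 bases. The shorter length makes 377 whole codons, that is 376 residues and a stop, the size of the protein of the spliced form, so that model would hold coding sequence alone. The files hold no sequence, and which form each ID carries was not checked. The 1850-base transcript ran from 22.7 to 34.9 TPM in vehicle (median 27.1) and from 25.5 to 36.8 TPM in OCA tumours (median 30.7). Its means of 27.8 ± 4.20 (SD, n = 7) and 31.1 ± 4.98 TPM (SD, n = 6) overlapped widely and gave a log2 fold change of 0.12 (SE 0.12). The 1131-base transcript ran from 10.0 to 23.1 TPM in vehicle (median 15.6) and from 8.80 to 20.1 TPM in OCA tumours (median 17.0). Here the OCA group held the lowest value of all and the vehicle group the highest, with means of 14.9 ± 4.31 (SD, n = 7) and 15.6 ± 4.14 TPM (SD, n = 6) and a log2 fold change of 0.03 (SE 0.21).

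Any other XBP1 transcripts were not analysed here. The 1131-base transcript made up 34.7% ± 8.31 (SD, n = 7) of the summed TPM of the 2 XBP1 IDs in vehicle and 33.0% ± 4.04 (SD, n = 6) in OCA tumours. The difference of -1.71 percentage points was within the spread between tumours (two-sided exact permutation test, p = 0.653). Vehicle tumours ranged from 24.5% to 46.1% and OCA tumours from 25.7% to 36.4%, so that vehicle values surrounded the OCA values. The difference was -1.70 points in the lower series (exact p = 0.886) and 0.32 points in the upper series (exact p = 1). Without the 3 libraries apart on the first component it widened to -6.14 points (32.4% in OCA and 38.5% in vehicle, two-sided exact permutation p = 0.119), and without the 3 of low total it turned to 1.70 points (exact p = 0.714). Reads common to both transcripts are divided by a statistical model, so the share carries assignment error as well as biology. Were the 1131-base model coding sequence alone, reads from outside that sequence could not be assigned to it. The share is thus not a measure of splicing by IRE1.

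**Figure D5:**
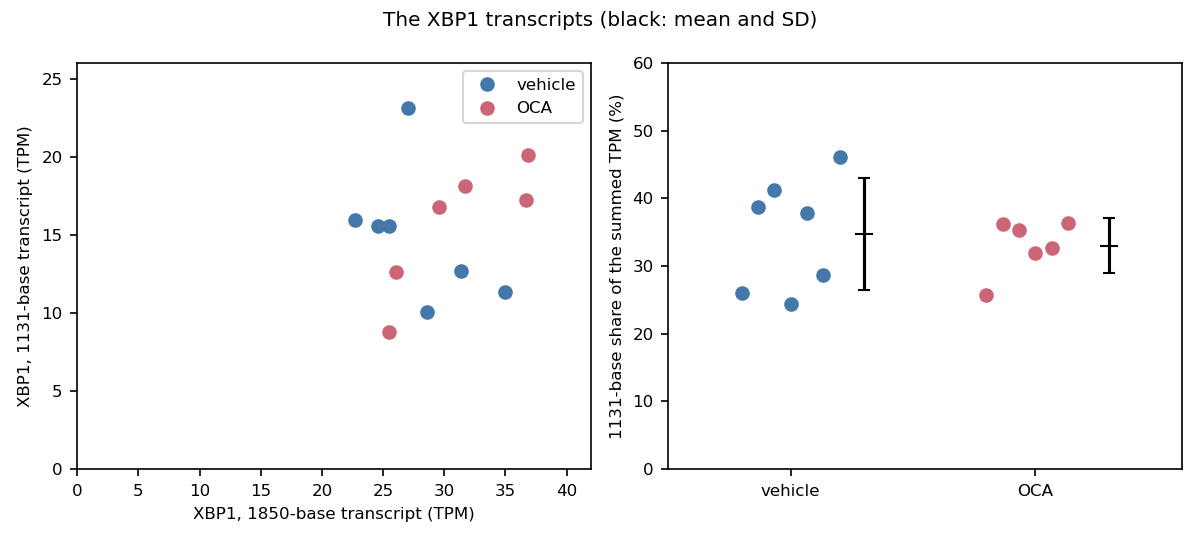
Left, TPM of the 1131-base against the 1850-base XBP1 transcript, 1 point per tumour; right, the share of the 1131-base transcript in their summed TPM, with mean and SD in black. The shares overlap, at 24.5% to 46.1% in vehicle and 25.7% to 36.4% in OCA tumours.

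DDIT3 (CHOP), a transcription factor that promotes cell death in lasting ER stress, and ATF3, a factor induced early in many stresses, stand for the transcriptional arm of the integrated stress response. The DDIT3 transcript (ENST00000346473.8, 903 bases) ran from 10.4 to 19.3 TPM in vehicle (median 14.5) and from 12.8 to 22.1 TPM in OCA tumours (median 15.5). Its means were 14.6 ± 2.85 (SD, n = 7) and 16.7 ± 3.38 TPM (SD, n = 6), with a log2 fold change of 0.15 (SE 0.16) and 1 OCA tumour above every vehicle tumour. That value was 0.03 without the 3 libraries of low total, 0.06 without OCA replicate 4 and 0.09 without vehicle replicate 5. It rose to 0.27 without the 3 libraries apart on the first component and to 0.24 without vehicle replicate 4. The ATF3 transcript (ENST00000341491.9, 1940 bases) ran from 1.08 to 3.09 TPM in vehicle (median 1.41) and from 1.37 to 3.22 TPM in OCA tumours (median 2.47). Of the 4 highest ATF3 values 3 were in OCA tumours, while 2 other OCA tumours sat at the vehicle median, between 1.37 and 1.43 TPM. The means of 1.79 ± 0.764 (SD, n = 7) and 2.36 ± 0.869 TPM (SD, n = 6) gave a log2 fold change of 0.36 (SE 0.31) and limits of 0.81 and 2.04 as a fold. Without the 3 libraries apart on the first component the ATF3 value became 0.78 (edgeR adjusted p = 1), the largest move of a member there, and without the 3 of low total it became 0.20.

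TRIB3, a pseudokinase that DDIT3 and ATF4 induce and that restrains AKT signalling, and DDIT4 (REDD1), an inhibitor of mTORC1 that also responds to hypoxia and glucocorticoids, are targets further downstream. The TRIB3 transcript (ENST00000217233.9, 2356 bases) ran from 9.53 to 14.5 TPM in vehicle (median 11.7) and from 7.90 to 16.5 TPM in OCA tumours (median 13.4). OCA tumours held both extremes, around means of 11.8 ± 1.83 (SD, n = 7) and 13.3 ± 3.21 TPM (SD, n = 6), with a log2 fold change of 0.12 (SE 0.16). The DDIT4 transcript (ENST00000307365.4, 1744 bases) ran from 48.7 to 129 TPM in vehicle (median 98.4) and from 60.3 to 173 TPM in OCA tumours (median 103). DDIT4 was the most variable of the members above 10 TPM, with coefficients of variation of 40.3% in vehicle and 36.8% in OCA tumours, against 15.9% and 6.55% for CALR. Its means of 89.2 ± 36.0 (SD, n = 7) and 108 ± 39.9 TPM (SD, n = 6) gave a log2 fold change of 0.25 (SE 0.29). Leaving out OCA replicate 2, the tumour with 173 TPM, took that value down to 0.07, and leaving out vehicle replicate 5 or 6 took it to 0.15 or 0.16. The DDIT4 value was 0.04 without the 3 libraries of low total. It rose to 0.38 without OCA replicate 6, to 0.36 without vehicle replicate 1 and to 0.46 in the upper label series.

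Between tumours, 41 of the 45 pairs of members had a positive Pearson r on the log2(TPM + 0.1) scale, with a median of 0.39. This was 34 of 45, with a median of 0.25, without the 3 libraries of low total. Among all pairs of the 14710 transcripts at 10 CPM or more, 50.7% were positive over the 13 libraries and 50.2% without those 3. HERPUD1 and ATF3, at 0.438 and 3.54 CPM on average, lie below the level of that set. The 45 pairs are formed from the same 10 transcripts, so their signs are not independent. With deviations from the group means, the median r of the 45 pairs was 0.31. No pair passed the threshold after adjustment over the 45 (0 by Pearson's r and 0 by Spearman's rho), and 14 had an unadjusted permutation p under 0.05 by Pearson's r. The highest were the 1131-base XBP1 transcript with TRIB3, HSPA5 with the 1850-base XBP1 transcript, and HSPA5 with DDIT3. XBP1 with TRIB3 gave r = 0.75 (adjusted permutation p = 0.0898; rho = 0.72, adjusted permutation p = 0.112), 0.82 and 0.63 in the lower and upper series, and 0.46 without the 2 libraries farthest from the median of XBP1. HSPA5 with the 1850-base XBP1 transcript gave r = 0.72 (adjusted permutation p = 0.0898; rho = 0.73, adjusted permutation p = 0.112), 0.74 and 0.57 in the series, and 0.82 without the 2 farthest. HSPA5 with DDIT3 gave r = 0.72 (adjusted permutation p = 0.0898; rho = 0.51, adjusted permutation p = 0.231), 0.52 and 0.61 in the series, and 0.56 without the 2 farthest. The lowest were HSP90B1 (r = -0.27) and CALR (r = -0.17) with the 1131-base XBP1 transcript, and ATF3 with TRIB3 (r = -0.05), none of which passed the threshold (adjusted permutation p = 0.562, 0.675 and 0.917). Spearman's rho for these was -0.10, -0.08 and -0.02 (adjusted permutation p = 0.823, 0.844 and 0.95). Library total moved with several members, as given above. Without the 3 libraries of low total, r was 0.80 for the 1131-base XBP1 transcript with TRIB3, 0.67 for HSPA5 with the 1850-base XBP1 transcript and 0.43 for HSPA5 with DDIT3, and for HSPA5 with HSP90B1 it fell from 0.65 to 0.06.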

How the data were processed

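Total RNA of 13 tumours (7 vehicle, 6 OCA, RNA integrity number above 6) was sequenced as paired reads of 150 bases, per the labels' protocols. Tools named in the submitters' processing notes are Salmon, STAR, FastQC and DESeq2, and the build is GRCh38.p14. Neither the annotation of transcripts nor the treatment of mouse reads is stated there. For each of 244939 transcripts the authors deposited, per the file headers, an estimated count of reads and a TPM value, with length and effective length. Estimated counts need not be whole and were rounded. Levels are the deposited TPM; tests used the counts.

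Transcripts were kept by filterByExpr (minimum count 10, minimum total 15), scaled by TMM and tested by edgeR 4.0.16 (robust quasi-likelihood F test, two-sided, Benjamini-Hochberg over all 74973, threshold 0.05) in R 4.3.3. The standard error is the log2 fold change divided by the square root of F. Precision is limited by 34015674 to 50596490 estimated reads per library and by assignment of shared reads. Libraries were taken as separate animals, since the protocols count mice. Correlations used log2(TPM + 0.1) and 100000 resamples. Alternatives were DESeq2 1.42.0 after the same filter, limma 3.58.1 (voom, or log2 TPM with 0.1 or 1 added), other scalings and filters, no robust estimation, label series, and leaving out libraries. Scripts were tested on simulated data.

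The members and lists were chosen with earlier results of these data known. All 10 IDs are named, and of the correlations the 3 highest and 3 lowest pairs. The files pair no other ID with a gene name and the reference used here is of the mouse, so the other pathway genes, marker genes, human sequences and positions were not analysed here. The planned recognition of the spliced XBP1 form by a fixed difference in length was not possible.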

Additional observations from a re-analysis of the deposited data

Results flagged for a closer look

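CALR in OCA replicate 1, at 663 TPM, lay far below the other 5 OCA tumours for the spread of that group (760 to 798 TPM). It was the 1 value of this kind in 22 tests, which covered the TPM of the 10 transcripts and the XBP1 share in each group, where chance alone gives about 1.1. Without that tumour the CALR log2 fold change went from -0.04 to -0.000916.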

How the results depend on the processing

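No member passed the adjusted threshold in the 276 combinations of member and alternative that had an adjusted p (smallest 0.50; DESeq2 gave none for HERPUD1 and ATF3), so each change of sign below is of a difference that was not called. HSPA5, HERPUD1, DDIT3, ATF3 and DDIT4 stayed higher in OCA in every alternative that held them; HERPUD1 and ATF3 were not held at a mean of at least 5 CPM. The count of 0 transcripts past the threshold became 12 with DESeq2, 1 with limma on log2(TPM + 0.1) and 1 without the 3 libraries apart on the first component. Leaving out each library gave 0 to 1, with 1 without vehicle replicate 7 or OCA replicate 6. Without adjustment, 2078 transcripts had a p under 0.05, and this count was 3130 by DESeq2, 3707 with limma-voom, 3516 and 3683 with limma on TPM, 16150 without a filter and 1019 at 5 CPM. In the lower label series log2 fold changes turned to -0.0095 for HSP90B1, -0.034 for the 1850-base and -0.12 for the 1131-base XBP1 transcript. Without the 3 libraries of low total they turned to -0.057 for HSP90B1 and -7.18e-06 for the 1850-base XBP1 transcript, and without the 3 apart on the first component to -0.15 for the 1131-base XBP1 transcript and -0.0087 for TRIB3. CALR turned to 0.0150 with limma on log2(TPM + 0.1) and on log2(TPM + 1), to 0.11 in the upper series and to 0.019 without the 3 apart. Leaving out each library gave -0.10 to 0.016 for CALR and -0.053 to 0.15 for the 1131-base XBP1 transcript. The difference in XBP1 share turned to 0.32 points in the upper series and 1.70 without the libraries of low total, widened to -6.14 without the 3 apart, and ran from -3.42 to 0.19 with each library left out. The count of 0 correlated pairs stayed at 0 in all 5 alternatives. ATF3 with TRIB3 turned to r = 0.21 without the 3 apart and 0.35 in the lower series, and CALR with the 1131-base XBP1 transcript to 0.10 and 0.055. The cause of these changes was not tested. No paired analysis was possible because the labels give no number shared between the groups.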
